A study of Mus musculus with 12 samples.

Results

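Heat shock proteins and molecular chaperones were examined in sorted cortical endothelial cells of adult mice, gene by gene, in 4 genotype groups and 12 libraries. Members were the genes whose symbol begins with Hspa, Hspb, Hspd, Hspe, Hsph, Hsp90, Dnaja, Dnajb or Dnajc followed by a digit or letter, without Hspbap1, or with Cct followed by a digit. The rule used names only and no measured value, and it found 83 of the 21638 genes in the deposited table. They comprised 13 Hspa, 1 Hsph, 3 Hsp90, 9 Hspb, 1 Hspd, 2 Hspe, 4 Dnaja, 13 Dnajb, 28 Dnajc and 9 Cct genes. A shared prefix is not always a shared role: Hspbp1 encodes a nucleotide exchange factor of Hsp70, and Hspb11 encodes the intraflagellar transport protein Ift25. Of the 83 members, 72 averaged 10 counts or more per library and were tested. The 11 others (Hspb3, Hspb7, Hspb9, Dnajb3, Dnajb7, Dnajb8, Dnajc5b, Dnajc5g, Dnajc6, Dnajc22 and Cct8l1) had mean counts of at most 9.83 and no single count above 36.

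Endothelial cells had been sorted by flow cytometry for CD31, against CD41 (platelets) and against CD45 (leukocytes), and full-length cDNA was amplified with a SMART-Seq v4 PLUS kit before paired-end sequencing. Each group had 3 libraries: wild type (WT), Hdac2lox/lox (Hdac2 ECKO, endothelial loss of the histone deacetylase Hdac2), Ezh2lox/lox (Ezh2 ECKO, endothelial loss of the Polycomb methyltransferase Ezh2) and a Ctnnb1lox/lox line with a gain of function of beta-catenin (beta-catenin GOF). All 3 mutants carried Cdh5CreERT2, a tamoxifen-inducible Cre recombinase driven by the endothelial gene Cdh5, and had been given tamoxifen in 5 doses, each of 75 mg/kg, 2 months before the brains were collected. The WT genotype is not described further in the labels, which do not say whether WT mice carried the Cre or received tamoxifen, so genotype, Cre and tamoxifen cannot be told apart in comparisons with WT. The labels also do not say whether the 3 libraries of a group came from separate animals, so p-values measure only the spread between these libraries.

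Chaperones bind unfolded stretches of other proteins and keep them from aggregating until they fold, cross a membrane or are degraded. Hsp70 proteins work in cycles of ATP hydrolysis in which J-domain proteins (Dnaja, Dnajb, Dnajc) deliver clients and start hydrolysis, and exchange factors such as Hsp110 release the client. Hsp90 acts later on signalling proteins, small heat shock proteins (Hspb) hold unfolded clients without ATP, and the ring-shaped chaperonins Hsp60 with Hsp10 (mitochondrion) and TRiC/CCT (cytosol) enclose clients in a chamber. The cytosolic set is induced by the transcription factor HSF1 during heat or other proteotoxic stress, including cell isolation, and the set of the endoplasmic reticulum by the unfolded-protein response. In endothelium, Hspb1 is known as a regulator of actin filaments, and Hspa12b as an Hsp70-like gene with strong expression in blood vessels.

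Library totals ranged from 24781070 to 36109975 counts, and log2 profiles correlated across genes with r of 0.90 to 0.96 within groups. Levels are given as CPM, the usual counts-per-million scale, taken over tested genes after TMM scaling, which corrects for differences in composition, and triples list replicates 1, 2 and 3. Summed CPM of 12 endothelial markers ranged from 17223 to 25190 over the 12 libraries. The sums of 17223, 18075 and 18511 in Hdac2 ECKO were below those of every other library. Single markers went both ways there, 4 wholly above WT and 4 wholly below (66.7% apart, against 37.8% of all genes). The part of this difference in the members' values was not tested. Hdac2 stood at 163, 122 and 104 CPM in WT and 82.2, 95.0 and 112 in Hdac2 ECKO, and the groups overlapped. Ezh2 stood at 8.88, 2.69 and 8.69 CPM in WT and at 9.85, 5.19 and 11.7 in the libraries labelled Ezh2 ECKO, where it was not lower, so these are called by their label throughout. Ctnnb1 stood at 546, 608 and 809 CPM in WT and 696, 576 and 478 in beta-catenin GOF, a level that does not check a gain of function. Counts cover the whole gene, including parts outside a lox-flanked stretch, and splicing across it was not analysed here. In these bulk libraries fewer cells of a type and less RNA per cell cannot be told apart.

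Chaperone genes were among the abundant transcripts of WT endothelium, and the ranking was led by a small heat shock protein. Levels between genes are compared per length, as counts per kilobase scaled to the same total in each library. On this scale Hspb1 had 2017 ± 392 (SD, n = 3), ranked 45 among all rows of the table, and made up 31.9% of the summed member level. The constitutive Hsp70 gene Hspa8 followed with 760.0 ± 394, then the splicing-associated J-protein gene Dnajc8 with 364, Hsp90ab1 with 322, Hsp90b1 with 211 and Hsp90aa1 with 178. The Hspa8 and Hspb1 means differed by more than either SD, whereas the SDs of Hspa8, Dnajc8 and Hsp90ab1 overlapped. Next came Dnajb9 at 159, Cct8 at 153 and Hspe1 at 143, neighbours that differed by less than their SDs. The median over the 72 tested members was 29.1, against 6.28 over the 12577 genes tested, and 14 members reached 100 while 47 reached 10. The lowest tested members were Dnajb13 at 0.0157 and Hspa12a at 0.243.

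**Figure D1:**
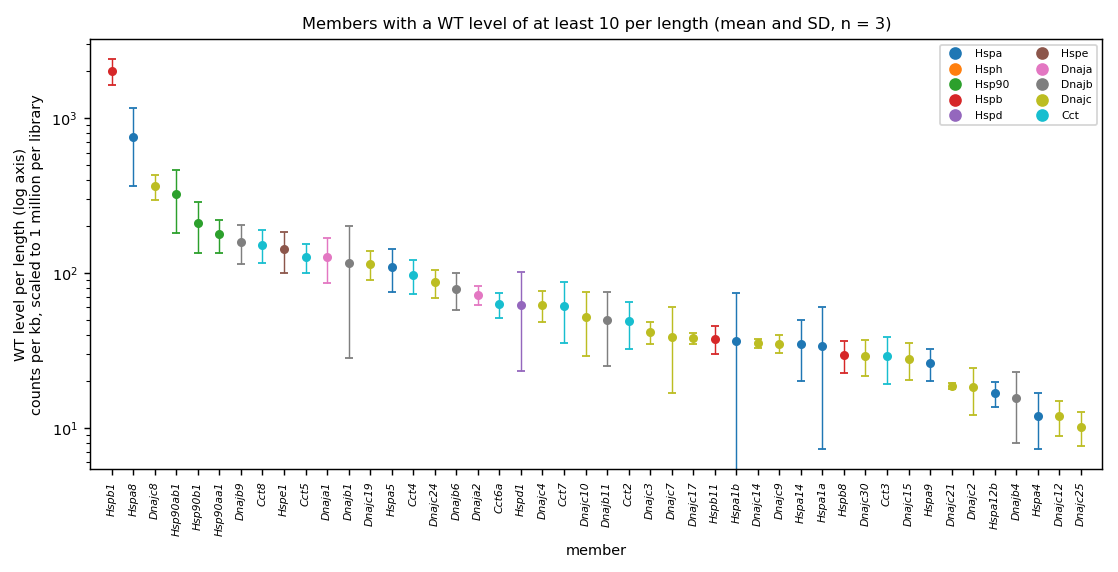
Levels per length of the members at 10 or more in WT, with 1 of the 47 left out (points, mean; bars, SD, n = 3; log axis), coloured by family. Hspb1 leads at 2017, Hspa8 follows at 760.0, and the lower bar of Hspa1b runs below the axis because its SD (38.4) exceeds its mean (36.4).

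WT replicate 1 stood apart from the other WT libraries in heat-inducible members. Hspa1a and Hspa1b, the classic stress-induced Hsp70 genes, stood out. Hspa1a was at 85.6, 28.3 and 30.0 CPM in WT, so replicate 1 was 2.93 times the mean of replicates 2 and 3. Hspa1b was at 102, 21.7 and 20.6 CPM, a ratio of 4.81. Dnajb1, the J-protein partner of inducible Hsp70, was at 309.9, 127 and 95.2 CPM, a ratio of 2.79. Of 16 tested members listed as heat-inducible, 10 were highest in WT 1 among the WT libraries, as were 33.9% of all genes tested. Hsph1, Hspe1, Hspa1l and Hspa4 went the other way, with ratios of 0.421, 0.549, 0.717 and 0.861. Over all 12 libraries, 26.4% of the tested members had their highest level in WT 1, against 15.3% of all genes tested. The same library had a summed level of 20 immediate early genes, which respond to cell isolation, of 13083 CPM, against 2379 to 6517 CPM in the other 11, and 12 of these 20 genes were highest there. The part of this library in the results was not tested beyond the values without it.

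The summed level of the 83 members was 10553, 8955 and 7328 CPM for WT, 5108, 6250 and 5973 for Hdac2 ECKO, 6498, 8389 and 6148 for labelled Ezh2 ECKO and 7372, 7075 and 9256 for beta-catenin GOF. The 3 Hdac2 ECKO libraries were below every other library except labelled Ezh2 ECKO replicate 3, which was lower than Hdac2 ECKO replicate 2. As a share of raw counts the members made up 1.05%, 0.854% and 0.651% in WT and 0.544%, 0.752% and 0.661% in Hdac2 ECKO, so without TMM scaling the groups overlapped.

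**Figure D2:**
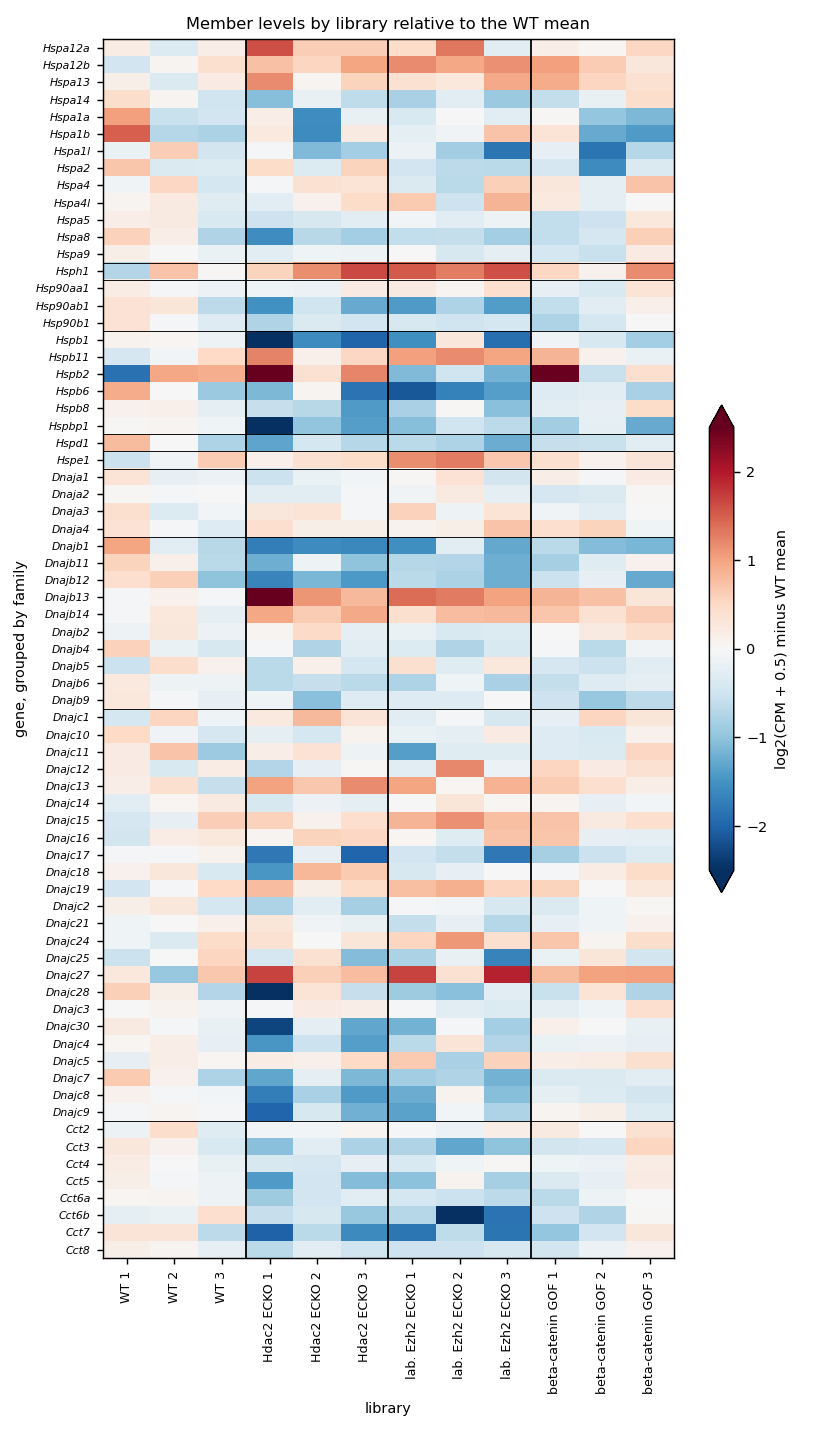
Level of the tested members, with 1 left out, in each library as log2(CPM + 0.5) minus the WT mean, grouped by family (rows) and genotype (columns). Blue rows in Hdac2 ECKO include Hspb1, Dnajb1, Dnajc8 and Cct7, WT 1 is red for Hspa1a and Hspa1b, and labelled Ezh2 ECKO replicate 2 is pale for Hspb1.

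Against WT, 7 members passed the threshold in Hdac2 ECKO (edgeR adjusted p under 0.05), 9.72% of the 72 tested, beside 9.2% of all genes tested, so the share was near the background. Hspb1, Dnajb1, Dnajb12, Dnajc8 and Dnajc4 fell, where 5.38% of all genes did, and Dnajb14 and Dnajb13 rose, where 3.82% did. Values of the groups did not overlap for 24 members (33.3%, against 37.8% of all genes), 19 of them lower and 5 higher, where 18.2% and 19.5% of all genes were apart in these directions. The median log2 fold change was −0.31 over the members and 0.10 over all genes. Scaling by library size alone raised the median of all genes to 0.34 and that of members to −0.04, and gave 8 calls of which 62.5% were higher, against 28.6% in the main fit. Each of the 7 calls was lost when WT replicate 1, WT replicate 2, Hdac2 ECKO replicate 1 or Hdac2 ECKO replicate 3 was left out, fits in which at most 3 genes of the whole table passed, and that of Dnajb14 also without WT replicate 3. For labelled Ezh2 ECKO no member passed in edgeR (1.03% of all genes did), and DESeq2 called 13 of the 72, where it called 10.2% of all genes. In beta-catenin GOF none passed in edgeR (0% of all genes) or DESeq2. At an unadjusted p under 0.05 there were 27, 24 and 6 members in the 3 comparisons, which share the WT libraries (37.5%, 33.3% and 8.33%, against 33.1%, 24.7% and 6.07% of all genes).

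**Figure D3:**
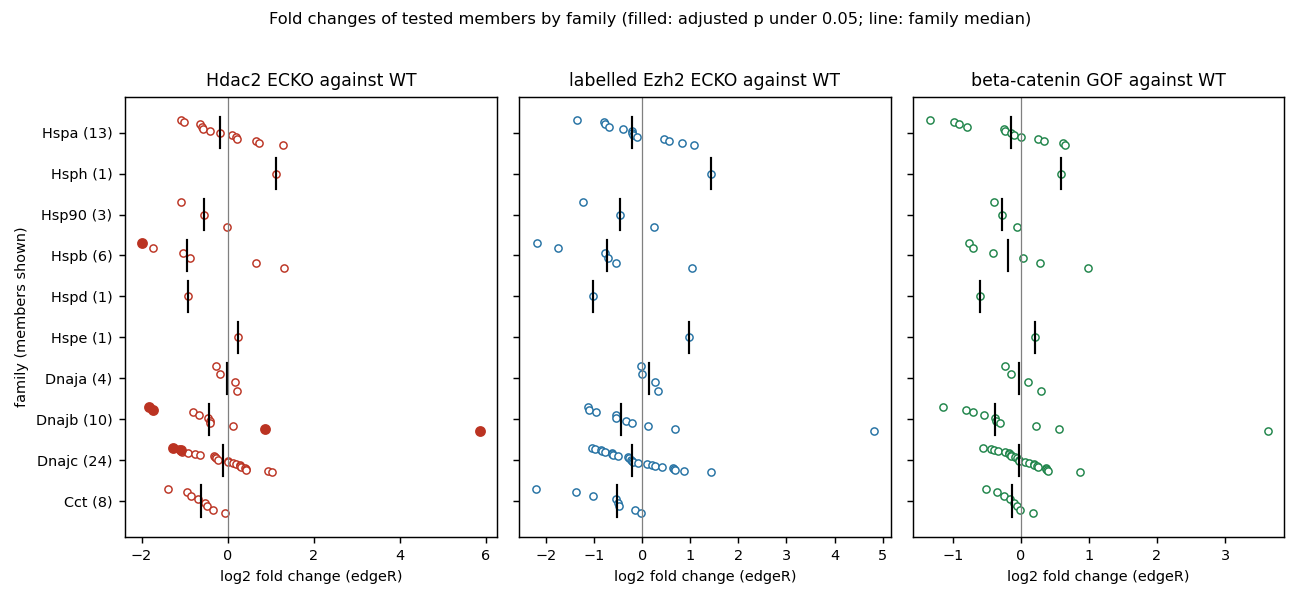
Log2 fold changes of the tested members, with 1 left out, against WT in each mutant, by family (points, genes; filled, edgeR adjusted p under 0.05; black line, family median). The 7 filled points all lie in Hdac2 ECKO, and the 8 Cct genes lie left of 0 there; the point at 5.87 is Dnajb13, whose WT counts were at or under the floor.

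Hspb1 (chr5:135887919-135889563, plus strand, GRCm38) showed the largest fall by log2 fold change among the called members. Its level was 1097, 1064 and 948 CPM for WT, 179, 346 and 258 for Hdac2 ECKO, 356, 1259 and 279 for labelled Ezh2 ECKO and 977, 781 and 571 for beta-catenin GOF. All 3 Hdac2 ECKO libraries were below all 3 WT and all 3 beta-catenin GOF libraries, while labelled Ezh2 ECKO was split, with replicate 2 above every WT library and the others near Hdac2 ECKO. The log2 fold change in Hdac2 ECKO was −1.99 (SE 0.46, edgeR adjusted p 0.0338), 3.97-fold lower, and was −1.95 without WT replicate 1. For labelled Ezh2 ECKO it was −0.71 (edgeR adjusted p 0.333), and it reached −1.71 (edgeR adjusted p 0.00917) without labelled Ezh2 ECKO replicate 2. Between beta-catenin GOF and Hdac2 ECKO the difference was 1.57 (SE 0.46, edgeR adjusted p 0.168), which did not pass. Against WT, 13 of 20 immediate early genes had log2 fold changes below 0 in Hdac2 ECKO, and 7 of the 20 passed in edgeR as lower. These 7 were 35% of the list, where 5.38% of all genes passed as lower, and their part in the Hspb1 result was not tested.

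The Hspb1 promoter is shown because it belongs to the member with the largest fall and to an HSF1-responsive family. It is the 250 bases before the RefSeq start (chr5:135887669-135887918, plus strand, GRCm38.p6), with capitals marking matches to a pair of heat shock units (GAANNTTC or TTCNNGAA, searched on both strands after the longer element had been searched).

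Hspb1: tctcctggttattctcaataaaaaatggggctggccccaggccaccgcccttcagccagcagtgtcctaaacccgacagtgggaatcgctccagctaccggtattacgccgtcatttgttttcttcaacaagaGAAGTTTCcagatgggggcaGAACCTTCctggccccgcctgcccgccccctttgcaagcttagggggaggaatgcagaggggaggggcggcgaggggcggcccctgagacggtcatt

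The matches begin 117 and 97 bases before the start. Such a pair was present in 15.1% of all 32851 RefSeq promoter windows of 300 bases (250 before to 50 after the start) and in 25.6% of the 86 windows of 67 members that matched the table, and overlapping matches count once per window. The median log2 fold change in Hdac2 ECKO was −0.53 over the 17 tested members with such a pair and −0.33 over the 41 without. For the longer element of 3 units, described below, the order was the other way, at −0.20 over 4 members with it and −0.40 over 54 without. A match describes letters in the window and nothing about binding.

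Hspb8, which works with the co-chaperone Bag3 in selective autophagy, was at 30.6, 31.0 and 24.4 CPM in WT and 19.1, 17.4 and 10.4 in Hdac2 ECKO, below every WT library, with a log2 fold change of −0.88 (edgeR adjusted p 0.0948). Hspb6, a muscle-enriched small heat shock protein, was at 12.1, 6.21 and 3.03 CPM in WT and 1.04, 1.57 and 2.08 in labelled Ezh2 ECKO, without overlap, and did not pass (−2.19, edgeR adjusted p 0.0743). Hspb2, also enriched in muscle, reached 14.1, 2.87 and 5.55 CPM in Hdac2 ECKO and 13.9, 1.27 and 2.96 in beta-catenin GOF, with replicate 1 highest in both, against 0.208, 4.56 and 4.34 in WT and 0.713, 1.34 and 0.647 in labelled Ezh2 ECKO. Summed CPM of 12 pericyte and smooth muscle markers was 316 and 384 in those replicates, 67.4 to 123 in WT and 56.9 to 73.0 in labelled Ezh2 ECKO, and the part of such cells in the Hspb2 and Hspb6 values was not tested. Hspb2 also shares 1030 bases with Cryab on the opposite strand, and whether the authors counted by strand is not given in the sources used here. Of the 2 Hspb-named members that are not small heat shock proteins, Hspbp1 was lower in every mutant library than in WT (9.02, 9.34 and 8.15 CPM in WT, 0.682, 4.18 and 3.09 in Hdac2 ECKO; log2 fold change −1.73, edgeR adjusted p 0.0518), and Hspb11 was higher in all 3 labelled Ezh2 ECKO libraries (1.03, edgeR adjusted p 0.0964).

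**Figure D4:**
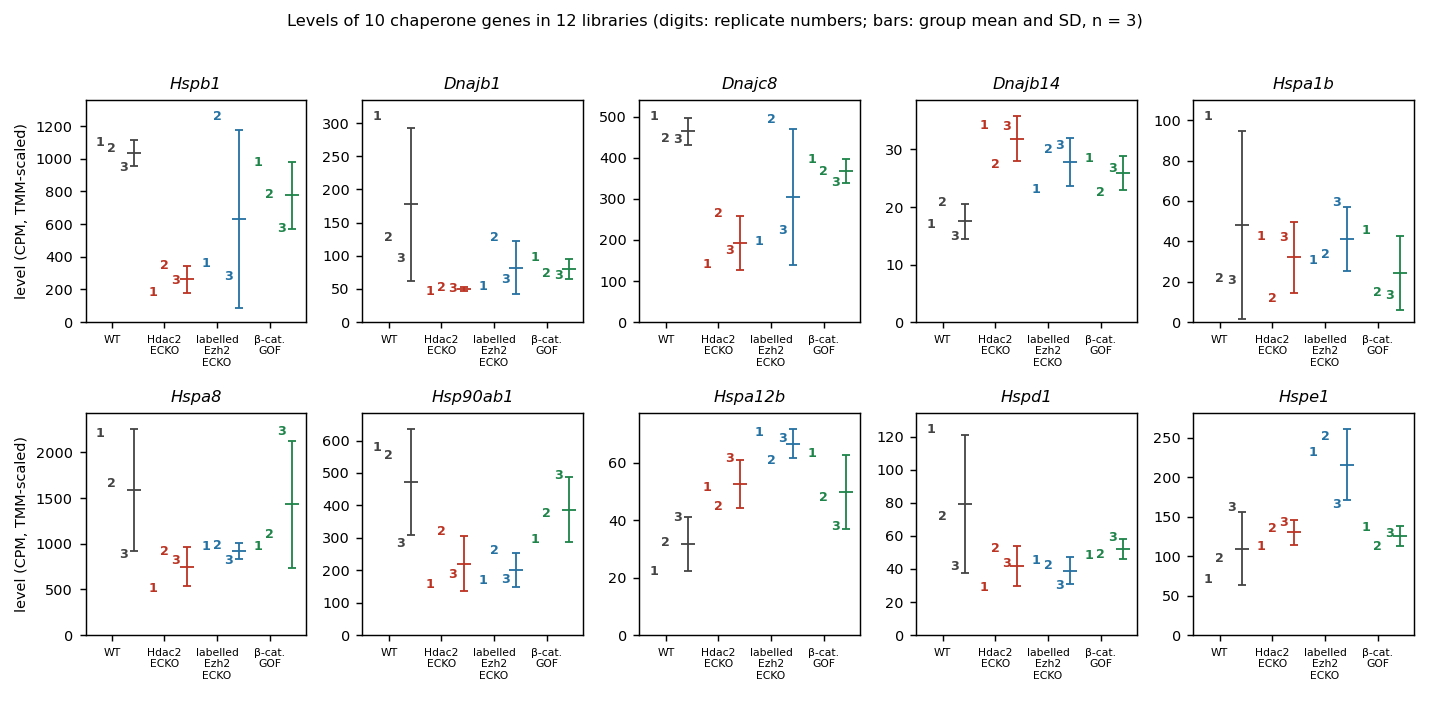
CPM of 10 members in each library (digits, replicate numbers; bars to the right, mean and SD, n = 3; linear axis from 0). Hdac2 ECKO lies below WT without overlap for Hspb1, Dnajb1 and Dnajc8 and above it for Dnajb14 and Hspa12b; WT replicate 1 is high for Dnajb1 and Hspa1b.

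None of the 13 Hsp70 genes passed in edgeR in any comparison; against WT, 2, 1 and 1 did so at an unadjusted p under 0.05 in Hdac2 ECKO, labelled Ezh2 ECKO and beta-catenin GOF (15.4%, 7.69% and 7.69%, against 33.1%, 24.7% and 6.07% of all genes). DESeq2 called Hspa8 in Hdac2 ECKO and Hspa12b in labelled Ezh2 ECKO, where it called 20.3% and 10.2% of all genes. Hspa8, the abundant constitutive Hsp70, was at 2210, 1660 and 881 CPM for WT, 506, 915 and 818 for Hdac2 ECKO, 965, 980.0 and 817 for labelled Ezh2 ECKO and 967, 1099 and 2230 for beta-catenin GOF. WT replicates 1 and 2 and beta-catenin GOF replicate 3 were the highest, and WT replicate 3 lay within the Hdac2 ECKO range. The log2 fold changes were −1.09 (SE 0.37, edgeR adjusted p 0.0684) in Hdac2 ECKO and −0.78 (edgeR adjusted p 0.205) in labelled Ezh2 ECKO. The stress-induced Hspa1a and Hspa1b overlapped WT in all 3 mutants, with log2 fold changes of −0.56 and −0.59 in Hdac2 ECKO. They share 52.7% and 55.8% of their 75-base windows with each other, so the division of reads between them is uncertain. Hspa5 (BiP), the Hsp70 of the endoplasmic reticulum, was at 251, 261 and 171 CPM in WT and 157, 171 and 184 in Hdac2 ECKO, with overlap. The mitochondrial Hspa9 (mortalin) was at 62.6, 56.9 and 49.9 CPM in WT and 46.4, 52.0 and 51.8 in Hdac2 ECKO, also with overlap. Their log2 fold changes in Hdac2 ECKO were −0.42 and −0.17.

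The near-identical promoters of Hspa1a and Hspa1b are represented by that of Hspa1a (chr17:34972157-34972406, minus strand, GRCm38.p6), shown because these genes set WT replicate 1 apart from the other WT libraries. The RefSeq windows of the pair are identical at 296 of 300 positions, and capitals mark the match to a pair of heat shock units, which begins 104 bases before the start.

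Hspa1a: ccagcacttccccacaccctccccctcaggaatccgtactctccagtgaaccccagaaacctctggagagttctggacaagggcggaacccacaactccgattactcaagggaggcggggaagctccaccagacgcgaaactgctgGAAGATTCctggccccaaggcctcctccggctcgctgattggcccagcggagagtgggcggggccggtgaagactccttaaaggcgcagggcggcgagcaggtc

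The vascular member Hspa12b was higher in all 3 groups of mutants by mean. It was at 22.1, 32.4 and 40.9 CPM for WT, 51.4, 44.8 and 61.4 for Hdac2 ECKO, 70.5, 61.0 and 68.4 for labelled Ezh2 ECKO and 63.3, 47.9 and 37.8 for beta-catenin GOF. Hdac2 ECKO and labelled Ezh2 ECKO lay wholly above WT, and only beta-catenin GOF replicate 3 fell within the WT range. The log2 fold change of 1.07 (SE 0.28) in labelled Ezh2 ECKO had the smallest adjusted p of any member there (edgeR adjusted p 0.0642), and 0.73 (edgeR adjusted p 0.0889) was found in Hdac2 ECKO. Hspa12a, its low-expressed relative, was at 1.32, 0.760 and 1.28 CPM in WT and 4.39, 1.96 and 1.94 in Hdac2 ECKO (1.30, edgeR adjusted p 0.203). Hspa13, an Hsp70-like protein of the endoplasmic reticulum, was above WT without overlap in beta-catenin GOF as well as labelled Ezh2 ECKO (0.62 and 0.55), and did not pass in either (edgeR adjusted p 0.855 and 0.287).

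Hsph1, the Hsp110 exchange factor, had higher means in the mutants, unlike Hspb1 and Dnajb1. It was at 3.75, 11.1 and 6.77 CPM for WT, 9.92, 15.4 and 21.8 for Hdac2 ECKO, 20.0, 16.6 and 21.2 for labelled Ezh2 ECKO and 9.69, 7.15 and 15.5 for beta-catenin GOF. The labelled Ezh2 ECKO libraries were all above WT, and Hdac2 ECKO replicate 1 fell below WT replicate 2. Log2 fold changes were 1.42 (SE 0.41, edgeR adjusted p 0.0767) and 1.13 (edgeR adjusted p 0.0803).

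Among the Hsp90 genes, the constitutive Hsp90ab1 had lower means in the mutants and none passed in edgeR. Hsp90ab1 was at 578, 553 and 283 CPM for WT, 156, 319 and 187 for Hdac2 ECKO, 168, 261 and 170.1 for labelled Ezh2 ECKO and 294, 375 and 491 for beta-catenin GOF. Labelled Ezh2 ECKO lay wholly below WT (−1.24, edgeR adjusted p 0.071), and Hdac2 ECKO replicate 2 exceeded WT replicate 3 (−1.09, edgeR adjusted p 0.0542). Hsp90aa1 was at 391, 338 and 312 CPM in WT and 319, 313 and 399 in Hdac2 ECKO, with a log2 fold change of −0.01 (SE 0.24). Hsp90b1 (Grp94), the Hsp90 of the endoplasmic reticulum, was at 530.1, 396 and 329.6 CPM in WT, 242, 319.5 and 296 in Hdac2 ECKO and 313, 290.0 and 301 in labelled Ezh2 ECKO, below every WT library in both, with log2 fold changes of −0.55 and −0.47 (edgeR adjusted p 0.148 and 0.262).

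Hsp60 and Hsp10 are read from a shared promoter region in opposite directions, and their means lay on opposite sides of WT in the mutants. Hspd1, encoding Hsp60, was at 125, 71.7 and 41.8 CPM for WT, 28.8, 52.7 and 43.5 for Hdac2 ECKO, 45.2, 41.8 and 30.1 for labelled Ezh2 ECKO and 48.2, 49.0 and 59.3 for beta-catenin GOF. Hspe1, encoding the Hsp10 lid, was at 70.7, 96.6 and 161 CPM for WT and 112, 135 and 142 for Hdac2 ECKO. It was at 231, 251 and 166 CPM for labelled Ezh2 ECKO and 136, 112 and 129 for beta-catenin GOF. WT replicate 1 was the highest of all libraries for Hspd1 and the lowest for Hspe1, and labelled Ezh2 ECKO lay wholly above WT for Hspe1. Log2 fold changes of labelled Ezh2 ECKO were −1.02 (SE 0.35) for Hspd1 and 0.98 (SE 0.29) for Hspe1, and neither passed (edgeR adjusted p 0.103 and 0.0778). The ratio of Hspd1 to Hspe1 CPM lay between 0.260 and 1.76 in WT, where it varied most, and between 0.167 and 0.196 in labelled Ezh2 ECKO. It was 0.256 to 0.389 in Hdac2 ECKO and 0.354 to 0.460 in beta-catenin GOF, so the labelled Ezh2 ECKO ratios were below those of every other library.

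The stretch before the Hspe1 start is shown because 1 set of elements lies between both genes (chr1:55087898-55088147, plus strand, GRCm38.p6). The RefSeq windows of Hspd1 and Hspe1 overlap by 285 bases, and capitals mark overlapping matches to the heat shock element of 3 units (GAA and TTC in alternation, separated by 2 bases of any kind), searched on both strands.

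Hspe1: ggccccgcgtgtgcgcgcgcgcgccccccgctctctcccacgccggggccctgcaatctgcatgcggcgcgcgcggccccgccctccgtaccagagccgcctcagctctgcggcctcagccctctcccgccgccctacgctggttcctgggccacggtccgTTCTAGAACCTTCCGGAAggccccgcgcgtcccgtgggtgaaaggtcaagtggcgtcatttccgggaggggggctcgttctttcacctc

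The matches begin 89 and 84 bases before the Hspe1 start, and the same bases lie 144 and 139 bases before the Hspd1 start on the other strand. This element was present in 0.603% of all windows and in those of 4 members, Dnajb6, Hspd1, Hspe1 and Hsph1. Their log2 fold changes in Hdac2 ECKO differed in sign, from −0.93 for Hspd1 to 1.13 for Hsph1.

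J-domain genes, 38 of the 72 members tested, gave 6 of the 7 calls in Hdac2 ECKO, a share of 15.8% beside 9.2% of all genes. The 6 include Dnajb13, which passed the filter on low counts through the mutant libraries, so its call is no support. After the correction for gene length described below, only Dnajb1 and Dnajb13 of the 6 still passed. Dnajb1 (chr8:83608193-83612653, plus strand, GRCm38) was at 309.9, 127 and 95.2 CPM for WT, 46.4, 52.2 and 50.8 for Hdac2 ECKO, 53.6, 128 and 64.1 for labelled Ezh2 ECKO and 97.1, 73.2 and 69.7 for beta-catenin GOF. The Hdac2 ECKO values were closely grouped and below those of all other libraries. The log2 fold change was −1.83 (SE 0.41, edgeR adjusted p 0.0334), 3.56-fold lower, and −1.16 (edgeR adjusted p 0.131) without WT replicate 1. The other mutants had −1.12 (labelled Ezh2 ECKO) and −1.15 (beta-catenin GOF) (edgeR adjusted p 0.114 and 0.706).

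Dnajb12 and Dnajb14, paralogous J-proteins of the endoplasmic reticulum membrane that recruit Hsp70 for degradation of misfolded proteins, moved in opposite directions. Dnajb12 was at 9.58, 10.9 and 3.28 CPM in WT and 1.89, 2.90 and 2.29 in Hdac2 ECKO (−1.74, SE 0.50, edgeR adjusted p 0.044), with WT replicate 3 the nearest to the mutant range. Dnajb14 was at 16.9, 20.8 and 14.8 CPM for WT, 34.2, 27.3 and 33.9 for Hdac2 ECKO, 23.1, 29.9 and 30.6 for labelled Ezh2 ECKO and 28.4, 22.6 and 26.8 for beta-catenin GOF. Every mutant library was above every WT library, and the log2 fold change passed in Hdac2 ECKO (0.86, SE 0.25, edgeR adjusted p 0.0456) and not in the other mutants (0.67 and 0.56). This call was lost after correction for gene length, described below.

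Dnajc8, which is associated with the spliceosome, was at 501, 448 and 444 CPM for WT, 139, 265 and 173 for Hdac2 ECKO, 197, 494 and 223 for labelled Ezh2 ECKO and 397, 367 and 339 for beta-catenin GOF. Hdac2 ECKO and beta-catenin GOF lay below WT, and labelled Ezh2 ECKO replicate 2 was at the WT level while the others were near Hdac2 ECKO. The fall in Hdac2 ECKO was −1.27 (SE 0.33, edgeR adjusted p 0.0388). Dnajc4 went from 39.4, 42.9 and 33.1 CPM in WT to 13.6, 26.1 and 14.4 in Hdac2 ECKO (−1.09, SE 0.33, edgeR adjusted p 0.0498), and labelled Ezh2 ECKO replicate 2, at 48.0 CPM, was above every WT library.

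Dnajb13, encoding a radial spoke protein of motile cilia and sperm tails, was nearly absent from WT, with counts of 0, 2 and 0. Counts were 94, 19 and 12 for Hdac2 ECKO, 27, 20 and 15 for labelled Ezh2 ECKO and 13, 14 and 5 for beta-catenin GOF. WT was at or under the floor of 3 counts per library, so the mean was at least 15.0-fold higher in Hdac2 ECKO (at least 5.08-fold without its replicate 1), at least 7.20-fold in labelled Ezh2 ECKO and at least 3.13-fold in beta-catenin GOF. It passed the filter on low counts through the mutant libraries, so its call is no support for a difference, and 6 of 71 members (8.45%) passed in Hdac2 ECKO when it is left out. The counts of members without overlap with WT include it in all 3 mutants, where it is no support either. Its 305 bases shared with Ucp2 on the opposite strand cannot be told apart without strand. Summed CPM of 6 ependymal markers was 2.01 to 4.69 in WT, 6.72 to 17.6 in Hdac2 ECKO, 1.97 to 8.95 in labelled Ezh2 ECKO and 4.06 to 15.6 in beta-catenin GOF, with Foxj1, the ciliated-cell regulator, at 0 in all 12 libraries.

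Of the remaining J-domain genes, Dnaja2, Dnajb6, Dnajc9, Dnajc17 and Dnajc30 lay wholly below WT in Hdac2 ECKO without passing, and Dnajc13 lay above it. Dnajc17, linked to pre-mRNA splicing, was at 24.3, 24.1 and 26.6 CPM in WT and 6.89, 21.6 and 5.96 in Hdac2 ECKO, where replicate 2 was near WT (−1.12, SE 0.45, edgeR adjusted p 0.103), and it was below WT in the other mutants as well. Dnajc13, which acts on endosomes, was at 17.2, 20.3 and 10.0 CPM in WT and 31.0, 24.7 and 35.2 in Hdac2 ECKO (0.93, edgeR adjusted p 0.0699). Dnaja1, the main cytosolic partner of Hsp70 by level, overlapped WT in each mutant (680.4, 465 and 487 CPM in WT, 369.9, 478 and 511 in Hdac2 ECKO), with log2 fold changes of −0.26, −0.01 and 0.09. Dnajb9 (ERdj4), a cofactor of BiP, was below WT without overlap in beta-catenin GOF and overlapped it in the other mutants, at 238, 193 and 172 CPM in WT and 139, 103 and 126 in beta-catenin GOF (−0.71, SE 0.26, edgeR adjusted p 0.731). Dnajc27, a GTPase with a J domain, was at 4.44, 1.61 and 6.05 CPM in WT and 6.55, 7.76 and 7.81 in beta-catenin GOF, above every WT library (0.87, edgeR adjusted p 0.887).

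All 8 tested Cct genes, most of which encode subunits of the TRiC ring that folds actin and tubulin, had log2 fold changes below 0 in Hdac2 ECKO and in labelled Ezh2 ECKO, and none passed in edgeR. At an unadjusted p under 0.05 there were 4 and 5 of the 8 (50% and 62.5%, against 33.1% and 24.7% of all genes). DESeq2 called Cct5 and Cct7 in Hdac2 ECKO and Cct3 and Cct7 in labelled Ezh2 ECKO, 25% of the 8 in each, where it called 20.3% and 10.2% of all genes. Their median log2 fold changes were −0.61 and −0.53 (−0.37 and −0.23 after the correction for gene length described below), beside 0.10 and 0.05 over all genes, and −0.13 in beta-catenin GOF, where Cct2 was the 1 gene above 0. Cct7 was at 245, 243 and 124 CPM for WT, 47.5, 122 and 64.0 for Hdac2 ECKO, 55.4, 125 and 54.7 for labelled Ezh2 ECKO and 99.8, 140.1 and 237 for beta-catenin GOF. Replicate 2 was the highest library of both Hdac2 ECKO and labelled Ezh2 ECKO, and WT replicate 3 was at that level (−1.39 in Hdac2 ECKO, edgeR adjusted p 0.0551; −1.38 in labelled Ezh2 ECKO, edgeR adjusted p 0.0887). Cct8, the Cct gene with the highest level per length, was at 257, 243 and 201 CPM in WT and 145, 195 and 165 in Hdac2 ECKO, without overlap (−0.47, edgeR adjusted p 0.158). Cct2 overlapped WT in all 3 mutants (55.0, 82.9 and 48.9 CPM in WT, 57.9, 57.6 and 63.3 in Hdac2 ECKO, −0.06). Cct6b, a testis form of a ring subunit, was near the detection limit, at 1.87, 2.03 and 3.28 CPM in WT and 1.23, 0 and 0.287 in labelled Ezh2 ECKO (−2.22, SE 1.03, edgeR adjusted p 0.195). Tcp1, which encodes the ring subunit whose symbol falls outside the rule, had a log2 fold change of −0.53 in Hdac2 ECKO (edgeR adjusted p 0.175).

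Among labelled Ezh2 ECKO libraries, none of the 72 members passed in edgeR, and 24 did so at an unadjusted p under 0.05 (33.3%, against 24.7% of all genes). DESeq2 called 13 of the 72, where it called 10.2% of all genes. Groups did not overlap for 24 members, 33.3% beside 22% of all genes, of which 10 were higher and 14 lower (11.1% and 10.9% of all genes). The higher set held Hsph1, Hspa12b, Hspa13, Hspe1 and Hspb11, and the mitochondrial J-proteins Dnajc15 and Dnajc19. Dnajc19, of the import motor of the inner membrane, was at 165, 225 and 326 CPM in WT and 388, 427 and 332 in labelled Ezh2 ECKO (0.68, edgeR adjusted p 0.151). Dnajc15, its close relative, was at 67.4, 78.3 and 137 CPM in WT and 163, 198 and 152 in labelled Ezh2 ECKO (0.86, edgeR adjusted p 0.0943). The lower set held Hsp90ab1, Hsp90b1, Hspb6, Dnajb11, Cct3, Cct6a and Cct8. The count of calls rested on single libraries: 12 members passed without labelled Ezh2 ECKO replicate 2 and 13 without WT replicate 3, with 2329 and 1143 genes of the whole table.

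In beta-catenin GOF none of the 72 members passed in edgeR or DESeq2. At an unadjusted p under 0.05, 6 did so (8.33%, against 6.07% of all genes), among them Hspa12b and Dnajb14 higher and Dnajb1 and Dnajb9 lower. The 6 also include Dnajb13, which passed the filter on low counts through the mutant libraries and is no support. Groups did not overlap for 12 members, 16.7% beside 12.7% of all genes, 7 higher and 5 lower (6.83% and 5.87% of all genes). Between mutants no member passed in edgeR, where 0.0239% of genes did between Hdac2 ECKO and labelled Ezh2 ECKO, 0.0716% between beta-catenin GOF and Hdac2 ECKO and 0.0636% between beta-catenin GOF and labelled Ezh2 ECKO. At an unadjusted p under 0.05 there were 7, 11 and 7 members (9.72%, 15.3% and 9.72%, against 8.19%, 21.1% and 13.2% of all genes). DESeq2 called Hspb1 alone, between beta-catenin GOF and Hdac2 ECKO, where it called 4.94% of all genes.

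The spread between libraries of a group was close for members and all genes, except in labelled Ezh2 ECKO, where the members varied less. The median coefficient of variation of CPM was 28.5% for WT, 26.4% for Hdac2 ECKO, 24.0% for labelled Ezh2 ECKO and 21.9% for beta-catenin GOF, beside 27.6%, 26.4%, 34.1% and 23.0% over all genes. Within Hdac2 ECKO, replicate 2 was the library nearest to the WT mean for 44 of 72 members (61.1%, against 57% of all genes). Replicate 2 of labelled Ezh2 ECKO was nearest for 30 members (41.7%, against 47.8%), Hspb1, Dnajb1 and Dnajc8 among them.

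Fold changes moved with gene length, in members as in all genes. Spearman's rho between length and log2 fold change in Hdac2 ECKO was 0.39 over the 72 members and 0.44 over all 12577 genes, given as a description since these points share libraries. It was 0.29 and 0.29 for labelled Ezh2 ECKO and 0.28 and 0.14 for beta-catenin GOF. After each library's length trend was removed, Hspb1 (1031 bases) and Dnajb1 still passed in Hdac2 ECKO, at −1.58 and −1.55 (edgeR adjusted p 0.0284 and 0.0373), as did Dnajb13. The value of Dnajb14 (15741 bases) went to 0.02 (edgeR adjusted p 0.968), and those of Dnajb12, Dnajc8 and Dnajc4 to −1.51, −0.91 and −0.64 (edgeR adjusted p 0.0647, 0.0533 and 0.108). The same correction brought Hspa12b and Hspe1 past the threshold in labelled Ezh2 ECKO, at 1.29 and 1.32 (edgeR adjusted p 0.0487 and 0.0439). The part of RNA quality or amplification in the length trend was not tested.

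**Figure D5:**
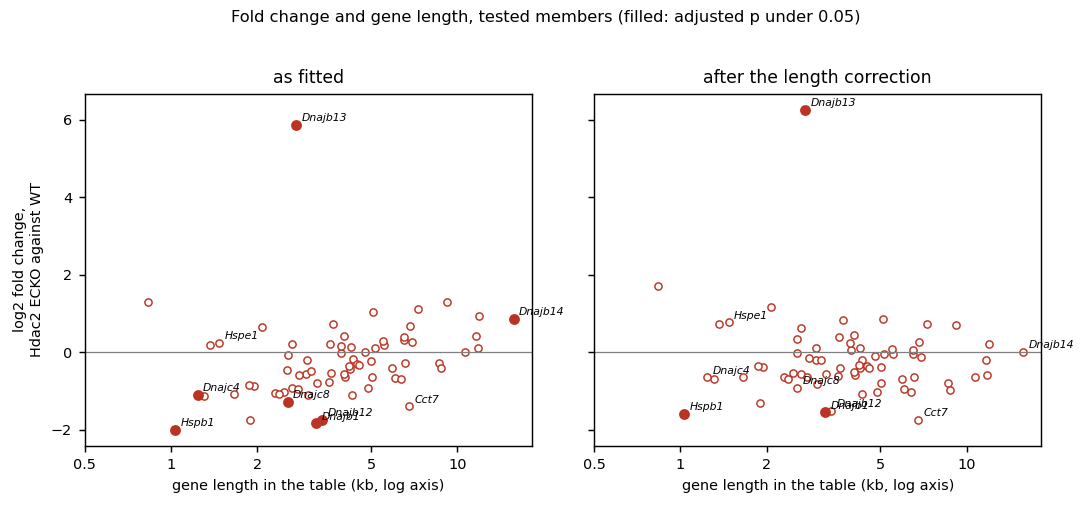
Log2 fold change of the tested members, with 1 left out, in Hdac2 ECKO against gene length (kilobases, log axis), as fitted and after the length trend of each library was removed. Spearman's rho over all 72 goes from 0.39 to −0.03, Hspb1 and Dnajb1 remain low, and Dnajb14 moves from 0.86 to 0.02.

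Partners of the members were read from lists of other pathway genes. Of 24 HSF and co-chaperone genes tested, Hsf2, a heat shock factor, rose in Hdac2 ECKO from 2.57, 3.61 and 3.53 CPM in WT to 13.1, 9.43 and 11.5 (1.81, edgeR adjusted p 0.0323), and Cdc37, the kinase-loading cofactor of Hsp90, fell from 104, 86.9 and 42.2 to 16.9, 41.6 and 19.6 (−1.58, edgeR adjusted p 0.0417). These 2 calls were 8.33% of the list, beside 9.2% of all genes, so the share was near the background. Cdc37 also fell in labelled Ezh2 ECKO, to 11.7, 24.4 and 19.8 CPM (−2.06, edgeR adjusted p 0.0478), the 1 call of the list there (4.17%, beside 1.03% of all genes). Hsf1 did not pass in either (−0.89 and −1.17, edgeR adjusted p 0.153 and 0.117). Of 21 folding and stress genes of the endoplasmic reticulum, 7 passed in Hdac2 ECKO (33.3%, beside 9.2% of all genes). Of these, 6 fell, the disulphide isomerases Pdia3, Pdia6 and P4hb, the lectin chaperone Calr and the regulators Xbp1 and Atf4. Sel1l, of the degradation machinery, rose. The values of the 6 ranged from −1.63 for Pdia6 to −1.03 for Xbp1, with a median of −0.69 over the list, where 5.38% of all genes fell. After length correction the median was −0.40 and 2 of the 21 passed. Hspa5, Hsp90b1 and the other 10 tested chaperones of this compartment among the members had a median of −0.28, with Dnajb12 and Dnajb14 the 2 called. Of 12 other mitochondrial folding and import genes none passed in edgeR in Hdac2 ECKO, and 2 did so at an unadjusted p under 0.05 (16.7%, against 33.1% of all genes). Of 10 TRiC and prefoldin genes Pdcl3 fell (−0.93, edgeR adjusted p 0.0497), 10% of that list beside 9.2% of all genes called. Of 20 immediate early genes, 7 passed as lower (35%, where 5.38% of all genes did), among them Jund (−2.40) and Atf3 (−2.41, edgeR adjusted p 0.0323). By sign, 13 of the 20 were lower and 7 higher.

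The Hspa5 promoter is shown as the example of the endoplasmic reticulum set (chr2:34771840-34772089, plus strand, GRCm38.p6), with capitals marking the ER stress element (CCAAT, 9 bases of any kind, then CCACG), searched on both strands.

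Hspa5: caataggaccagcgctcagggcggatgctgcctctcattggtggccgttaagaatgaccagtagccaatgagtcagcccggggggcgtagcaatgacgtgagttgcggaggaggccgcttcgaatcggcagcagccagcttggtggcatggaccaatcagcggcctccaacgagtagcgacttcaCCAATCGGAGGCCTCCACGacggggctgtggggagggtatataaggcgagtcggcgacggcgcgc

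The element begins 65 bases before the start and was present in 0.119% of all windows and in those of 3 members, Hspa5, Hsp90b1 and Dnajc3. Their log2 fold changes in Hdac2 ECKO were −0.42, −0.55 and 0.12, and none passed in edgeR (adjusted p 0.279, 0.148 and 0.746). Neither the 3-unit heat shock element nor the 2-unit pair was found in the Dnajb1 window, which says only that these letters are not there.

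Markers of some other cells differed between groups, and some sums differed widely within a group. Of 10 pericyte and smooth muscle markers tested, 4 passed in edgeR as higher in Hdac2 ECKO (Pdgfrb, Rgs5, Cspg4 and Myh11). These were 40% of the list, where 3.82% of all genes passed as higher, and the list's median was 1.30 there. In beta-catenin GOF the median was also 1.30, with none called in edgeR and 6 at an unadjusted p under 0.05 (60%, against 6.07% of all genes). The summed CPM of these markers there was 384, 121 and 122. Summed CPM of 5 erythroid genes was 36133 to 61380 in WT and 2519 to 6664 in labelled Ezh2 ECKO. It was 21676, 401 and 972 in Hdac2 ECKO and 35370, 510 and 29184 in beta-catenin GOF. Neuron markers summed to 165 to 308 CPM in WT and 66.2 to 115 in Hdac2 ECKO, and the other mutants overlapped WT. Microglia and leukocyte markers summed to 72.9 to 101 CPM in WT, 40.5 to 63.0 in Hdac2 ECKO and 58.1 to 83.6 in beta-catenin GOF. Over the 6 tested, the median log2 fold change was −0.56 in Hdac2 ECKO and −3.49 in beta-catenin GOF, with none called in edgeR. In beta-catenin GOF 5 of the 6 were lower and 1 higher, and 3 lay wholly below WT (50%, against 12.7% of all genes apart). Astrocyte markers were at 24.3 to 36.2 CPM in WT and above this in every mutant library, while platelet genes overlapped WT in each mutant. The part of these cells in the members' values was not tested.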

How the data were processed

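RNA of 12 libraries of sorted cortical endothelial cells was sequenced in pairs, and the authors deposited 1 table of counts per gene. The submitters' processing notes list FastQC, cutadapt, STAR, featureCounts, DESeq2 and the build mm10, without versions. Although the table is titled as normalized, its values are whole numbers with unequal totals, and they were used as raw counts, in which both mates of a pair appear to be counted. Coordinates and lengths came from GENCODE on GRCm38, and promoters from RefSeq on GRCm38.p6. Protein sequences were not analysed here.

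The 12577 genes averaging 10 counts or more were fitted over all 12 libraries without a block by edgeR 4.0.16 (TMM scaling, quasi-likelihood F test, two-sided) in R 4.3.3, with Benjamini-Hochberg adjustment within each of 6 comparisons and a threshold of 0.05. Standard errors are on the log2 scale. Depth was 24781070 to 36109975 counts, and 3 counts, taken as the floor for counting error only, stood for 0.0792 to 0.118 CPM. The fits were tested on simulated data. The labels do not say whether replicate numbers pair libraries, and the correlations given at the end do not settle it. Alternatives included DESeq2 1.42.0, limma 3.58.1, other scalings and filters, a length correction (natural spline with 5 degrees of freedom), a replicate block and leaving out each library.

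The members and lists were chosen with earlier results of these data known. Named genes were the members past the threshold, the highest per-length member of each family, the 3 largest rises and falls against WT among members whose groups did not overlap, 17 members with textbook roles, the targeted genes, and up to 6 called genes of each list. Other members are named after their values were seen, and 1 member is counted but not reported here by itself.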

Additional observations from a re-analysis of the deposited data

How the results depend on the processing

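In Hdac2 ECKO against WT, 7 members passed in the main analysis, 17 with no filter on low counts, 17 with DESeq2, 12 with limma-trend, 34 with sample quality weights and 3 after length correction, where 9.2%, 11.2%, 20.3%, 12.9%, 42.7% and 5.14% of all genes passed. In labelled Ezh2 ECKO against WT, where 0 passed, the same settings gave 16, 13, 1, 33 and 2, with 1.03% of all genes passing in the main analysis and 6.72%, 10.2%, 1.99%, 29.8% and 1.31% in these. With no filter on low counts, 2 members passed in beta-catenin GOF against WT, 3 between Hdac2 ECKO and labelled Ezh2 ECKO, 5 between beta-catenin GOF and Hdac2 ECKO and 2 between beta-catenin GOF and labelled Ezh2 ECKO (0.772%, 0.978%, 4.81% and 1.76% of all genes). Between beta-catenin GOF and Hdac2 ECKO, DESeq2 gave 1 and quality weights 14 (4.94% and 26.5% of all genes), and quality weights gave 4 between beta-catenin GOF and labelled Ezh2 ECKO (11.7%). Leaving out 1 library gave 0 to 17 members in Hdac2 ECKO against WT and 0 to 13 in labelled Ezh2 ECKO against WT (0% to 17.6% and 0.0159% to 18.5% of all genes), 0 to 3 between beta-catenin GOF and Hdac2 ECKO (3 without Hdac2 ECKO replicate 2) and 0 to 1 between beta-catenin GOF and labelled Ezh2 ECKO (1 without labelled Ezh2 ECKO replicate 2). Each such fit leaves a group of 2 libraries, and the cause of these shifts was not tested. Hspb1 and Dnajb1 passed in Hdac2 ECKO under all 10 settings that kept every library. Among 40 fold changes of single members followed over the settings, no direction reversed. Other values, which were not followed, did reverse after length correction, and not only those near 0. Hspa4l went from 0.44 to −0.04 in labelled Ezh2 ECKO and from 0.11 to −0.57 in Hdac2 ECKO. Hsp90aa1 in Hdac2 ECKO went from −0.01 to 0.06, and Dnaja1 in beta-catenin GOF from 0.09 to −0.04.

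With the replicate number as a block, 13 members passed in Hdac2 ECKO and 3 in labelled Ezh2 ECKO against WT (14.6% and 4.26% of all genes), and 0 in the other comparisons. Libraries with the same number deviated together only weakly, with r of −0.14 to 0.27 over 18 pairs, 4 of them above 0.1. For 8 of 12 libraries the mean r with libraries of the same number was above the mean r with all other numbers pooled.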
